A study of Rattus norvegicus with 6 samples.

Results

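The BCL2 family of survival and death genes was followed in mesenchymal stem cells of rat bone marrow, labelled aged or young. Its 10 members were taken by name from the 21026 gene symbols of the count table, and all 10 were found. They are the pro-survival genes Bcl2, Bcl2l1 (BCL-XL), Bcl2l2 (BCL-W) and Mcl1, the BH3-only death genes Bcl2l11 (BIM), Bbc3 (PUMA), Pmaip1 (NOXA), Bid and Bad, and the effector Bak1. Polyadenylated RNA of 3 aged and 3 young libraries was sequenced, and the labels count 3 biological replicates in each group. Age in months, strain, sex, passage and culture condition are not in the labels, nor is the number of animals behind the libraries. The p-values measure only how these libraries spread, part of which may be technical.

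Mesenchymal stem cells of the marrow are adherent stromal cells able to turn into osteoblasts, adipocytes and chondrocytes. BCL2 family proteins set the threshold of the mitochondrial pathway of cell death. Pro-survival members hold the effectors BAK and BAX in check at the outer mitochondrial membrane, and BH3-only members, switched on by stress, bind the pro-survival proteins or the effectors directly. When the effectors open the membrane, cytochrome c leaves and the apoptosome activates caspases. Much of this control acts on the proteins (phosphorylation of BAD, cleavage of BID, turnover of MCL1), which RNA counts do not show.

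The windows upstream of the start sites of the member with the largest rise (Pmaip1) and of the pair of members with the largest falls (Bid and Bcl2l11) are printed here from RefSeq, build GRCr8. Each runs 250 bases upstream of the annotated start, 5′ to 3′ on the strand of the gene. Pmaip1 lies at chr18:62255720-62255969 on the plus strand, Bid at chr4:155808320-155808569 on the minus strand and Bcl2l11 at chr3:135819792-135820041 on the plus strand. Capitals mark matches, on either strand, to the core of the cyclic AMP response element, TGACGT, which CREB and ATF factors bind. They also mark the GC box, GGGCGG, bound by SP1, and the box bound by NF-Y, CCAAT.
Pmaip1: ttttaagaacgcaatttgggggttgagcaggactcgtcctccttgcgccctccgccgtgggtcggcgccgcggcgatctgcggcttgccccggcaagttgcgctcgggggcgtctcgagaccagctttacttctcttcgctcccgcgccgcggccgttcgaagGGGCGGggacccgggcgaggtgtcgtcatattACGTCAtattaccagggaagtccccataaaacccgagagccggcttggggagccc
Bid: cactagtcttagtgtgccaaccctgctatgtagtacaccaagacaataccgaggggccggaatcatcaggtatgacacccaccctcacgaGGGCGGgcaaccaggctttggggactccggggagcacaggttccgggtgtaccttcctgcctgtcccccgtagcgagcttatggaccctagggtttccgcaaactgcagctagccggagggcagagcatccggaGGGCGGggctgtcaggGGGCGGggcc
Bcl2l11: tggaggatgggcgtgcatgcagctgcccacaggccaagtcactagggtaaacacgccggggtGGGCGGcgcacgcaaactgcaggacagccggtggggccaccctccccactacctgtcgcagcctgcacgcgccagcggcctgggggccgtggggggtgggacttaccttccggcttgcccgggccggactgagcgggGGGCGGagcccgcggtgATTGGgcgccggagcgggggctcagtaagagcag

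Of the 10 members, 9 had a window in that table, and Bbc3 had none. These motifs and the TATA box were chosen after the sequences were seen and were searched on both strands. The response element core was found for 1 of the 9 members, Pmaip1, on the opposite strand and ending 49 bases before the start, and in 6.95% of all 33469 windows. The GC box was found for 6 of the 9 members, and in 30.5% of all windows. Bid held 3 GC boxes, ending 154, 20 and 4 bases before the start, and Bcl2l11 held 2, ending 182 and 45 bases before it. The other members with 1 GC box each were Bcl2l2, Mcl1, Pmaip1 and Bak1. The CCAAT box was found for Bcl2l11 and in 2 of the 4 windows of Bcl2l1, and in 34.0% of all windows. A TATA box, searched as TATAAA, was found for Bcl2 only, ending 103 bases before the start, and in 12.9% of all windows. None of these motifs overlapped another in the printed windows, and a match is a description of letters, not of binding.

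Total counts were 34638874 to 38921547 in aged libraries and 40180480 to 42479626 in young ones. Aged libraries had 17790 to 17995 genes with a count and young ones 16337 to 16492, and mitochondria-encoded transcripts took 4.25 to 4.46% of aged counts and 1.07 to 1.36% of young counts. Young replicate 2 stood further from its group (chi-square per degree of freedom of 9.19 and 11.2 over genes) than any other pair of libraries within a group (3.13 to 3.64). Without it 8 of 9 tested members were called, Bbc3 being the one added, where 85.4% of all tested genes were called. Libraries of aged cells differed from those of young cells in most genes. Of 14273 tested genes, 86.4% were called different (quasi-likelihood test of edgeR, with a Benjamini-Hochberg adjusted p under 0.05), 44.7% higher and 41.8% lower in aged cells. Stromal marker transcripts were present in every library (10 of 10 markers detected, Vcam1 at only 5 to 37 counts). Their summed level was 16944 to 17028 CPM aged and 30804 to 31455 CPM young. CPM is counts scaled to a common library total with TMM factors. Col1a1 made up most of the sum, averaging 10930 CPM aged and 19590 CPM young. Of the 10, 6 were called lower in aged cells (41.8% of all tested genes) and 2 higher (44.7%). With library size alone 4 were lower (32.6%) and 5 higher (54.0%). Cxcl12 fell 16.7-fold and Thy1 2.61-fold, and Nt5e rose 4.48-fold. The defining blood-cell marker Ptprc had a mean of 0.00854 CPM in aged and 0 CPM in young libraries. Other blood-cell markers were detected. Csf1r averaged 21.8 CPM in aged and 0.32 CPM in young libraries. Cd14 averaged 21.0 CPM aged and 80.7 CPM young, Lyz2 0.173 CPM aged and 10.4 CPM young, and Cd68 0.784 CPM aged and 2.66 CPM young. The 6 endothelial markers together stayed below 0.7 CPM in every library.

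Between the groups, members of the family moved apart from each other and no single direction held for either side. Pmaip1 rose 6.63-fold and Bcl2l1 rose 2.52-fold in aged cells, while Bid, Bcl2l11 and Bad fell 2.68-fold, 2.59-fold and 2.03-fold. Bcl2l2 rose and Mcl1 fell by less (1.252-fold and, with TMM scaling but not with library size alone, 1.223-fold), Bbc3 and Bak1 were not called, and Bcl2 was at the limit of detection. Of the 9 members that passed the filter on low counts, 7 were called, against 86.4% of all tested genes, and the groups did not overlap for the same 7, against 87.5% of all tested genes. Against a minimum change of 1.5-fold, 5 of the 9 were called (edgeR glmTreat), as were 61.4% of all tested genes. There were 3 higher in aged cells (44.7% of all tested genes) and 4 lower (41.8% of all tested genes), or 4 higher and 3 lower when scaled by library size alone, where 54.0% of all tested genes were higher and 32.6% lower. The share of members called is thus near that of all genes and sets nothing apart. The median log2 fold change of the 9 was -0.21 (0.13 with library size alone), against 0.05 for all tested genes. The interquartile range of all tested genes ran from -0.85 to 1.30 on the log2 scale. Pmaip1, Bcl2l11, Bid and Bad lay outside it, and Bcl2l1 (1.33) only just. By construction that range leaves out as many tested genes as it holds, so this does not set the members apart either.

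**Figure D1:**
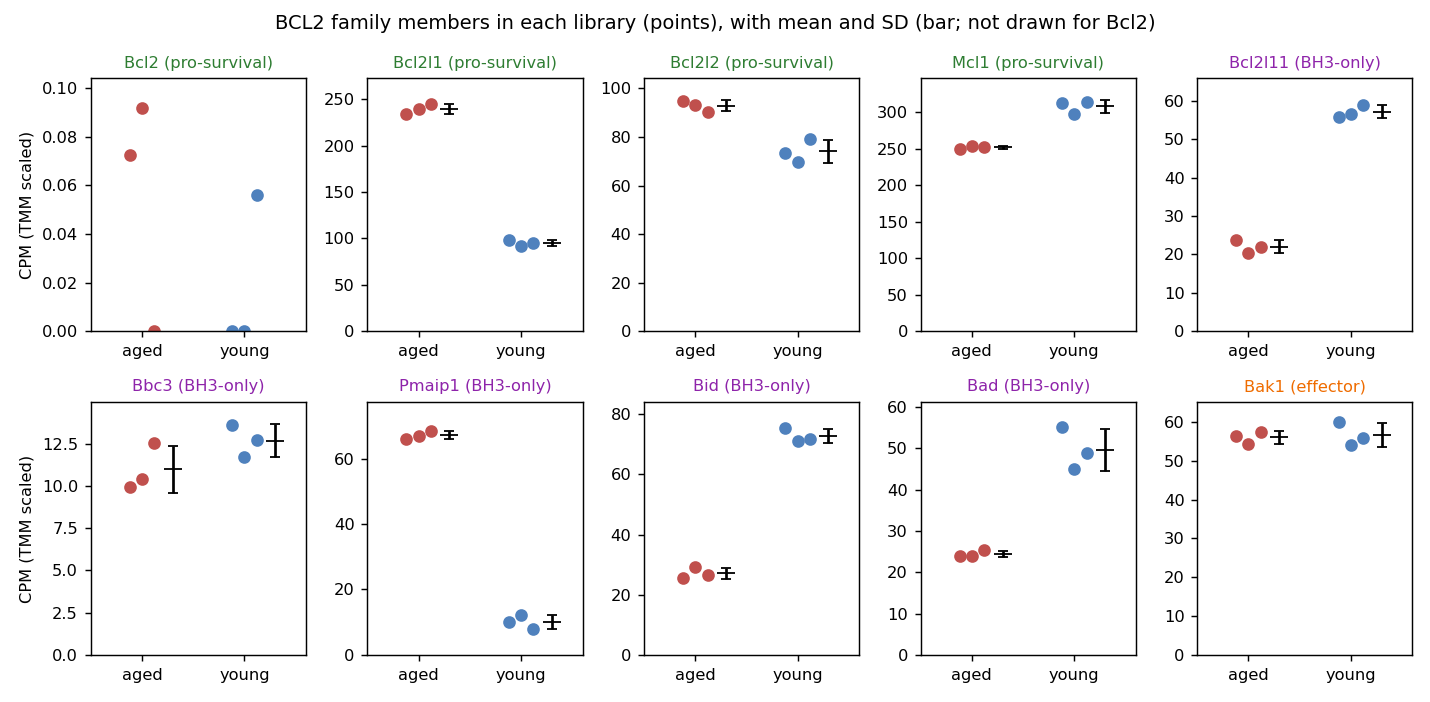
Level of each member in CPM (vertical axis, linear, from 0, a separate scale in each panel) in the 3 aged libraries (red, left) and the 3 young libraries (blue, right), with the mean and SD as a black bar. The 3 aged values lie above all young values for Bcl2l1, Bcl2l2 and Pmaip1, below them for Mcl1, Bcl2l11, Bid and Bad, and overlap them for Bbc3 (through aged replicate 3) and Bak1, all with TMM scaling. Bcl2 had at most 4 counts in a library, and no mean is drawn for it.

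Among the pro-survival genes, Bcl2l1 changed most. It encodes BCL-XL (the long splice form; the short form BCL-XS promotes death, and gene-level counts do not separate them). Bcl2l1 stood at 234.3, 239.8 and 244.6 CPM in aged libraries, against 98.5, 91.6 and 95.04 CPM in young libraries. The aged values were close together and all more than double the highest young value. The log2 fold change was 1.33 (SE 0.040, 95% interval 1.249 to 1.419, edgeR adjusted p = 2.2e-15). In absolute size this change exceeded that of 61.1% of tested genes.

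Bcl2l2 encodes BCL-W, a pro-survival protein that male germ cells need. Its values were 95.03, 93.02 and 90.4 CPM in aged libraries and 73.3, 69.8 and 79.3 CPM in young libraries. The groups did not overlap, and the gap between the lowest aged and the highest young value was about as wide as the spread within the young group. Bcl2l2 rose by 0.32 on the log2 scale (SE 0.051, edgeR adjusted p = 1.4e-05), and it was not called when tested against a minimum change of 1.5-fold (edgeR glmTreat adjusted p = 1). With library size alone its log2 fold change was 0.66 (edgeR adjusted p = 2.2e-09).

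Mcl1 encodes a pro-survival protein of very short life. It had 250.1, 253.3 and 252.2 CPM in aged libraries and 312.7, 297.3 and 313.9 CPM in young libraries. All aged values lay below all young ones, and the aged libraries were nearly identical. Its log2 fold change was -0.29 (SE 0.034, edgeR adjusted p = 4.5e-07). That direction depended on the scaling: with library size alone in place of TMM the log2 fold change was 0.05 and missed the threshold (edgeR adjusted p = 0.21). Against a minimum of 1.5-fold Mcl1 was not called either (glmTreat adjusted p = 1). Library size alone shifted the log2 fold change of all tested genes up by a median of 0.34, and 62.3% of called genes were then higher, against 51.7% with TMM.

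Bcl2, the founding member of the family, was hardly detected. It had 3, 4 and 0 counts in aged libraries and 0, 0 and 2 counts in young libraries. Each value is at or close to the limit of 3 counts that a count of 0 still allows, which was 0.0688 to 0.0769 CPM in aged and 0.0791 to 0.0840 CPM in young libraries (counting error only). Bcl2 did not pass the filter on low counts, so it was not tested and no fold is given. Neither group holds enough Bcl2 reads at this depth to tell them apart.

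The BH3-only genes went both ways. Pmaip1 encodes NOXA, a stress-induced protein that binds MCL1 and favours its degradation, as known from human and mouse cells. Pmaip1 had 66.0, 66.9 and 68.5 CPM in aged libraries and 9.95, 12.3 and 8.03 CPM in young libraries. Every aged value was more than 5 times the highest young one, and the young libraries varied more among themselves in proportion. The log2 fold change was 2.73 (SE 0.099, 95% interval 2.52 to 2.94, edgeR adjusted p = 2.9e-14), larger in absolute size than that of 85.2% of tested genes.

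Bid encodes the protein that caspase-8 cleaves to link death receptors to mitochondria. It stood at 25.6, 29.3 and 26.4 CPM in aged libraries and at 75.3, 71.1 and 71.6 CPM in young libraries. No aged library came near the young ones. Bid fell by 1.42 on the log2 scale (SE 0.061, 95% interval -1.55 to -1.29, edgeR adjusted p = 2.7e-13).

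Bcl2l11 encodes BIM, a BH3-only protein that binds all the pro-survival members and is induced by FOXO factors when growth factors are withdrawn. Its values were 23.8, 20.4 and 21.99 CPM in aged libraries and 55.8, 56.6 and 59.0 CPM in young libraries. The groups were far apart, with similar spread in each. Bcl2l11 fell by 1.37 on the log2 scale (SE 0.065, 95% interval -1.51 to -1.24, edgeR adjusted p = 1.2e-12). In GRCr8 the gene overlaps Acoxl, which had at most 3 counts in any library.

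Bad encodes a BH3-only protein that AKT phosphorylates and so keeps bound to 14-3-3 proteins in the cytosol. Bad had 24.02, 24.01 and 25.3 CPM in aged libraries, against 55.1, 44.9 and 48.8 CPM in young libraries. The aged values clustered tightly and the young ones were more scattered, without overlap. Bad fell by 1.02 on the log2 scale (SE 0.073, 95% interval -1.17 to -0.87, edgeR adjusted p = 4.2e-10), close to the median absolute change of all tested genes, 1.02.

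Bbc3 encodes PUMA, a protein that binds all the pro-survival members. It had 9.93, 10.4 and 12.6 CPM in aged libraries and 13.6, 11.7 and 12.7 CPM in young libraries, and the groups overlapped through aged replicate 3, the other aged values lying below every young one. The log2 fold change was -0.21 (SE 0.106, 95% interval -0.43 to 0.02, edgeR adjusted p = 0.076). Bbc3 was called lower without aged replicate 3 (log2 fold change -0.32, edgeR adjusted p = 0.016) or without young replicate 2 (-0.27, edgeR adjusted p = 0.020). With library size alone its log2 fold change was 0.13 and was not called (edgeR adjusted p = 0.27).

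Bak1, the only effector among the members, encodes the pore-forming protein BAK. Its values were 56.4, 54.2 and 57.4 CPM in aged libraries and 60.0, 54.0 and 56.0 CPM in young libraries. The groups were interleaved. The log2 fold change was -0.02 (SE 0.054, 95% interval -0.13 to 0.10, edgeR adjusted p = 0.78). With library size alone Bak1 was higher in aged cells, with a log2 fold change of 0.32 (edgeR adjusted p = 3.6e-05).

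**Figure D2:**
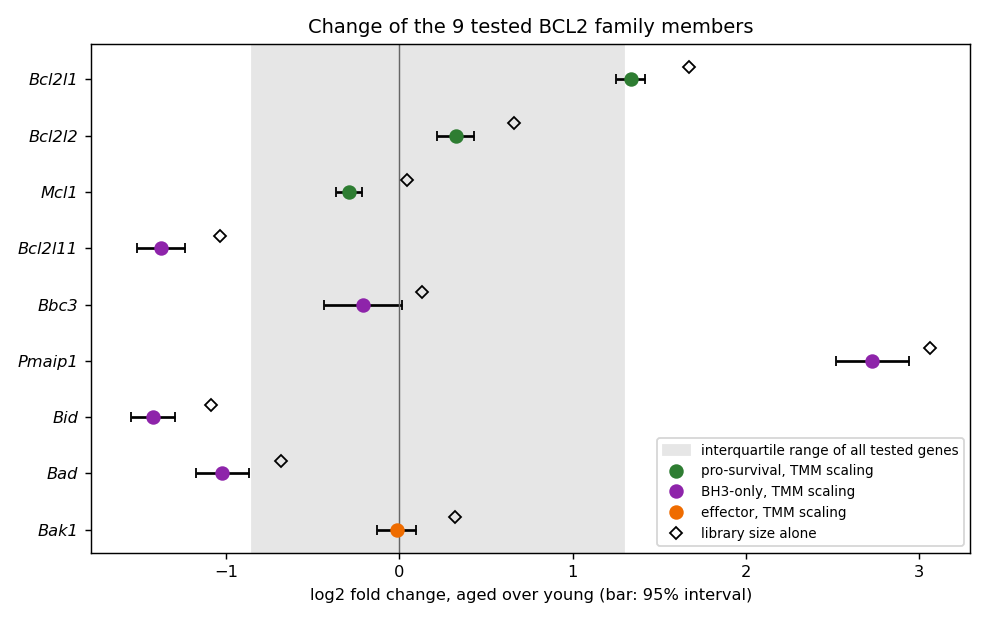
Log2 fold change of aged over young (horizontal axis) for the 9 tested members, with 95% intervals from the edgeR fit and TMM scaling (filled circles, coloured by role) and with library size alone (open diamonds); the grey band is the interquartile range of all tested genes, -0.85 to 1.30. With TMM scaling, Pmaip1 and (only just) Bcl2l1 lie to the right of the band and Bid, Bcl2l11 and Bad to its left. By construction the band leaves out as many tested genes as it holds. The diamonds of Mcl1, Bbc3 and Bak1 lie on the other side of 0 from their circles.

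Set against each other, pro-survival transcripts gained on pro-death transcripts in aged libraries on average, with Pmaip1 going the opposite way. In each library, the mean log2 CPM of Bcl2l1, Bcl2l2 and Mcl1 was taken minus that of the 6 pro-death members. This difference was 2.63, 2.64 and 2.56 in aged libraries and 1.90, 1.88 and 2.03 in young libraries. The means were 2.61 ± 0.042 in aged and 1.94 ± 0.082 in young libraries (SD, n = 3 each), a gain of 0.67 on the log2 scale. The level of the difference depends on the lengths of the genes, and only its change between groups can be read. As a comparison within a library it hardly depends on the scaling, and with library size alone the gain was again 0.67. No test is given, since the members were chosen with results of these data known. The SDs measure only the spread between libraries, and no such difference was computed for other sets of genes. For scale, the median absolute log2 fold change of a single tested gene was 1.02.

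The gain rested on few genes. In an alternative added after the data were seen, it was 1.27 when Pmaip1 was left out and 0.23 when Bcl2l1 was left out. Of the 18 pairs of a pro-survival with a pro-death gene, the log2 ratio was higher in all aged than in all young libraries for 13, lower for 4 and overlapping for 1. The pairs share genes and are not independent. No share over all gene pairs was computed, and 87.5% of all tested genes, taken singly, did not overlap between groups. The count therefore sets nothing apart.

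Ratios to Pmaip1 fell and ratios to Bad rose, both for pairs whose proteins are known to bind selectively and for the other pairs. NOXA binds MCL1 with preference. The log2 ratio of Mcl1 to Pmaip1 was 1.91 ± 0.023 in aged libraries and 4.94 ± 0.348 in young libraries. This was a change of -3.04, the most negative of the 18. A ratio change restates the changes of its genes. That rank follows from Pmaip1 rising most and Mcl1 having the lowest change of the tested pro-survival genes. BAD binds BCL-XL and BCL-W but not MCL1, and the log2 ratio of Bcl2l1 to Bad was 3.29 ± 0.024 in aged and 0.94 ± 0.095 in young libraries, a change of 2.35. The ratio of Bcl2l2 to Bad changed by 1.34, and that of Mcl1 to Bad by 0.725. The ratios of Bcl2l1 and Bcl2l2 to Pmaip1 changed by -1.41 and -2.42. The most positive changes were those of Bcl2l1 to Bid, 2.76, and Bcl2l1 to Bcl2l11, 2.71. The ratio of Mcl1 to Bbc3 overlapped between groups, with a change of -0.08. Against the effector, the ratio of Bcl2l1 to Bak1 changed by 1.35 and that of Mcl1 to Bak1 by -0.27.

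**Figure D3:**
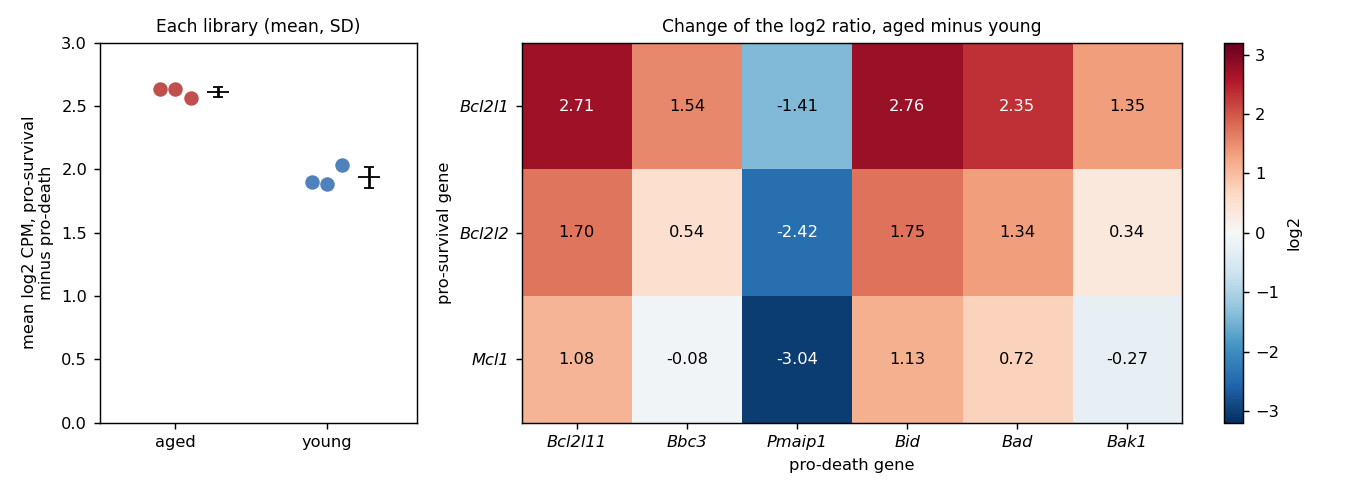
Left, mean log2 CPM of the 3 tested pro-survival members minus that of the 6 pro-death members (vertical axis, log2) in each aged (red) and young (blue) library, with the group mean and SD; the aged libraries sit at 2.56 to 2.64 and the young ones at 1.88 to 2.03. Right, change of the log2 ratio of each pro-survival gene (rows) to each pro-death gene (columns), aged minus young; the Pmaip1 column is negative throughout, from -1.41 to -3.04, and the Bcl2l1 row is positive for the other 5 pro-death genes.

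Other genes of the mitochondrial pathway were read from the same fit. Of 61 listed genes, 60 were in the table and 55 were tested; 20 were higher and 29 lower in aged cells, and 6 were not called (44.7% of all tested genes were higher and 41.8% lower). With library size alone 26 were higher and 23 lower (54.0% and 32.6% of all tested genes). The counts per list below are to be read against these shares. The median log2 fold change of the list was -0.25 with TMM and 0.09 with library size alone. Genes below that the naming rule did not choose are named because a count is small, after their values were seen.

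Of 9 tested further BCL2 family genes, 6 fell and 1 rose, against 41.8% and 44.7% of all tested genes (4 and 2 with library size alone, against 32.6% and 54.0%). Bax, the second main effector beside BAK, averaged 57.3 ± 1.41 CPM in aged and 109.2 ± 4.999 CPM in young libraries (SD, n = 3 each), a log2 fold change of -0.93 (edgeR adjusted p = 4.4e-12). Bok, a further effector-like member, fell 3.29-fold and Bcl2l12 fell 2.59-fold (edgeR adjusted p = 4.1e-11 and 2.4e-10). The one that rose was Bcl2l13, an outer-membrane protein that also serves as a mitophagy receptor, at 90.7 ± 2.06 CPM in aged and 56.0 ± 2.52 CPM in young libraries. The BH3-only gene Bmf averaged 11.5 ± 0.534 CPM in aged and 11.98 ± 1.97 CPM in young libraries without a call (edgeR adjusted p = 0.60). Bcl2a1, at 0.306 ± 0.209 CPM in aged and 0.240 ± 0.155 CPM in young libraries, was not called (edgeR adjusted p = 0.63). With library size alone Bmf was called higher, at 0.27 on the log2 scale (edgeR adjusted p = 0.033).

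In the list of apoptosome, caspase and related genes, 3 of 14 rose and 7 fell, against 44.7% and 41.8% of all tested genes. With library size alone 7 rose and 5 fell, against 54.0% and 32.6%. Apaf1, the scaffold of the apoptosome, rose 1.79-fold, to 38.6 ± 0.585 CPM in aged against 21.5 ± 1.04 CPM in young libraries (edgeR adjusted p = 1.2e-09). Casp9, the initiator caspase that APAF1 recruits, fell 2.36-fold, to 9.72 ± 0.662 CPM in aged against 23.0 ± 1.20 CPM in young libraries (edgeR adjusted p = 2.8e-10). Casp6 fell 3.40-fold and Htra2, a mitochondrial protease that antagonises inhibitors of apoptosis, fell 2.13-fold. Cycs, which encodes cytochrome c, averaged 52.2 ± 1.78 CPM in aged and 52.6 ± 1.96 CPM in young libraries and was not called (edgeR adjusted p = 0.86; with library size alone it was called higher, at 0.33 on the log2 scale).

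All 5 genes of inhibitor-of-apoptosis proteins were called, 3 higher and 2 lower, against 44.7% and 41.8% of all tested genes. Xiap, the direct caspase inhibitor, rose 12.7-fold, to 55.0 ± 2.95 CPM in aged against 4.32 ± 1.07 CPM in young libraries (edgeR adjusted p = 2.4e-15). Birc6, a giant ubiquitin ligase, rose 16.7-fold and Birc2, which encodes cIAP1, rose 5.75-fold (edgeR adjusted p = 1.4e-18 and 3.4e-16). Birc5, which encodes the mitotic protein survivin, fell 44.1-fold, to 1.19 ± 0.0807 CPM in aged against 52.4 ± 3.74 CPM in young libraries. Birc3, which encodes cIAP2, averaged 5.99 ± 0.296 CPM in aged and 7.95 ± 1.32 CPM in young libraries, and fell by 0.41 on the log2 scale, a call that was lost with library size alone.

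Of 7 tested death-receptor genes 4 rose and 3 fell, against 44.7% and 41.8% of all tested genes. Ripk1, a kinase of the tumour necrosis factor receptor complex, rose 2.57-fold, while the adaptor gene Tradd fell 3.23-fold and the receptor gene Tnfrsf1a fell 1.46-fold (edgeR adjusted p = 9.0e-13, 1.2e-12 and 1.3e-10). Tnfrsf1a was not called against a minimum of 1.5-fold (glmTreat adjusted p = 0.85).

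All 20 regulators of the members were called, 9 higher and 11 lower, against 44.7% and 41.8% of all tested genes (10 and 10 with library size alone, against 54.0% and 32.6%). With DESeq2, or with its size factors in edgeR, 8 were higher and 11 lower. Moap1, at 0.604 ± 0.188 CPM in aged and 0.298 ± 0.108 CPM in young libraries, overlapped between groups and was called at the margin (edgeR adjusted p = 0.049). Usp9x, a deubiquitinase that stabilises MCL1, rose 14.1-fold, to 292.7 ± 9.94 CPM in aged against 20.8 ± 1.27 CPM in young libraries (edgeR adjusted p = 8.2e-20). The ubiquitin ligase genes Huwe1 and Fbxw7, whose products mark MCL1 for degradation, rose 2.41-fold and 2.62-fold (edgeR adjusted p = 9.0e-14 and 1.5e-10). Akt2, a kinase that acts on BAD, fell 2.17-fold, and Tpt1, whose product binds MCL1 and BCL-XL, fell 1.90-fold (edgeR adjusted p = 3.3e-14 and 1.7e-15).

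**Figure D4:**
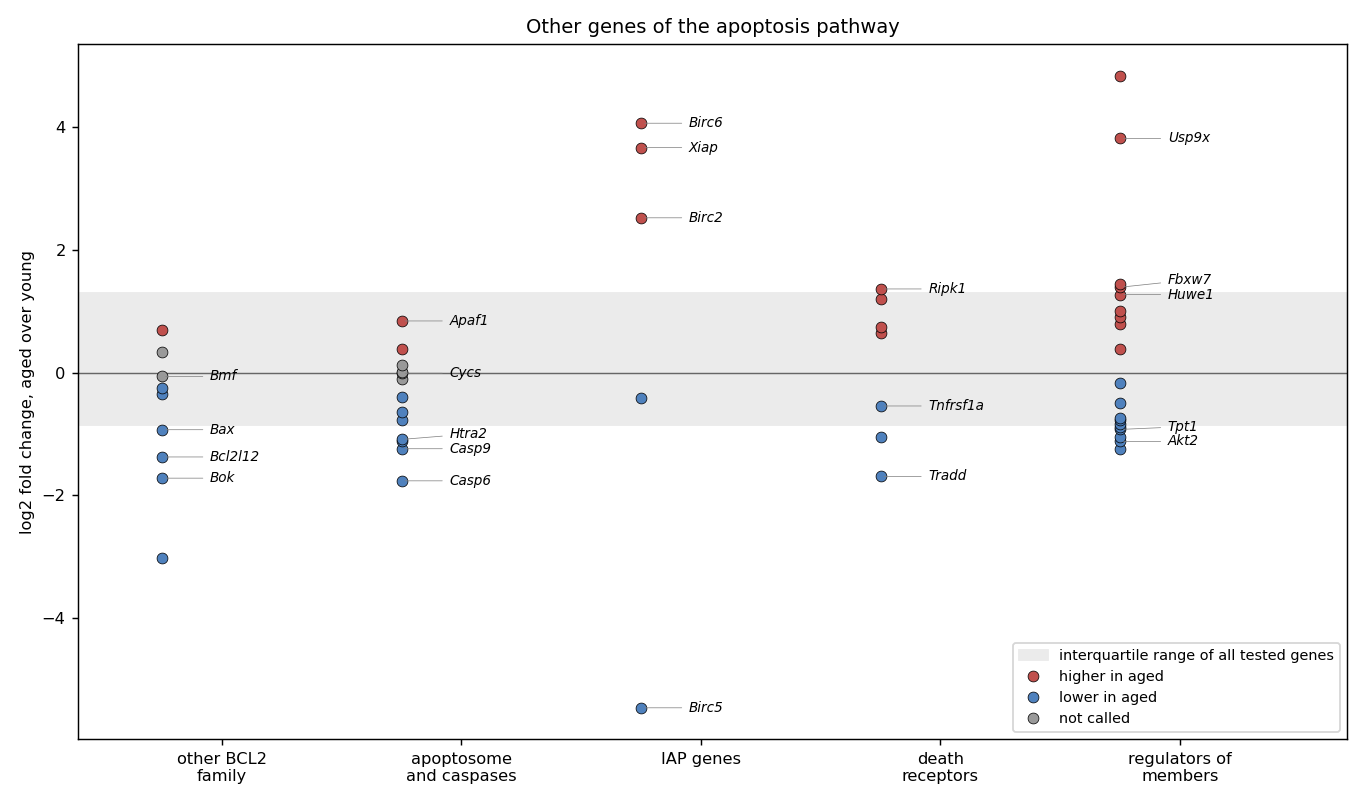
Log2 fold change of aged over young (vertical axis) for the tested other genes of the pathway that are reported, in 5 lists, coloured by call at an edgeR adjusted p under 0.05, with the interquartile range of all tested genes as a grey band. The inhibitor-of-apoptosis genes run from Birc5 at -5.46, the lowest point, to Birc6 at 4.06. Usp9x stands at 3.82 among the regulators. The highest point, not labelled, is the regulator Trim17 at 4.84, with 1.66 CPM in aged and 0.0551 CPM in young libraries.

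Transcripts used as markers of other cell types differed between the groups together with the members, as did most stromal markers. The 6 adipocyte markers summed to 0.642 to 1.28 CPM in aged and 355.5 to 372.8 CPM in young libraries, and all 4 that were tested fell. Most of the young sum was Fabp4 (mean 320.8 CPM). The untested Adipoq had 1 to 3 counts in aged and 3 to 18 in young libraries. Lep, also untested, went the other way, with 7 to 10 counts in aged and 1 to 4 in young libraries. The 8 blood-cell markers in the table summed to 43.3 to 44.2 CPM in aged and 93.0 to 95.9 CPM in young libraries, with 1 higher and 3 lower of 4 tested. The 6 endothelial markers summed to 0.359 to 0.678 CPM in aged and 0.211 to 0.471 CPM in young libraries, and Emcn had 0 counts in every library. The only endothelial marker tested, Tek, was called higher, with 15, 25 and 10 counts in aged libraries and 2, 1 and 0 counts in young libraries (edgeR adjusted p = 2.6e-04). The part of such cells, and of the higher mitochondria-encoded share, in the changes of the BCL2 family was not tested. In bulk RNA, fewer cells of a type and less RNA per cell cannot be told apart.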

How the data were processed

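Polyadenylated RNA of 6 libraries was sequenced. RNA was taken up in TRIzol and prepared with the VAHTS Universal V6 kit, per the labels' protocols. Tools named, with no version, are fastp, HISAT2 and HTSeq, per the submitters' processing notes. Build, annotation and strand setting: not given in the sources used here, so reads of overlapping genes and of pseudogenes (RefSeq lists some for Bcl2l1, Bcl2l2 and Mcl1) cannot be told apart. The authors deposited raw read counts per gene symbol, without normalization, and columns were matched to samples by library name. All 10 members matched a RefSeq symbol.

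The counts went through edgeR 4.0.16 (R 4.3.3): filterByExpr (minimum count 10), TMM scaling, quasi-likelihood F test with group as the only term, and Benjamini-Hochberg adjustment over the 14273 genes tested. Fold changes are aged over young, and SE is the absolute log2 fold change over the square root of F. Log2 CPM used a prior count of 2. The procedure was tested on simulated data in which few genes changed, in random directions. That simulation cannot test the scaling where most genes differ, as they do here. Alternatives were DESeq2 1.42.0, limma-voom (limma 3.58.1), other scalings, no filter, a 1.5-fold minimum, a replicate block and leaving out each library. Named genes are the 10 members, the 3 genes with the smallest p of each of 5 pathway lists, and 12 genes acting on or after the members, of which 2 are not reported here. The members and lists were chosen with earlier results of these data known. Transcript lengths and GC content were not used here, so levels are not compared between genes.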

Additional observations from a re-analysis of the deposited data

How the results depend on the processing

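Under the 13 alternatives, 5 to 8 members were called (2 to 4 higher and 3 to 5 lower), and 36 to 49 of the other pathway genes. Bcl2l1, Pmaip1, Bcl2l11, Bid and Bad kept their direction and call under all 13, with log2 fold changes of 1.30 to 1.67, 2.57 to 3.06, -1.43 to -1.04, -1.48 to -1.09 and -1.09 to -0.68. Over all genes 8760 to 13418 were called. The lowest count was 61.4% of 14273 genes tested (1.5-fold minimum). The highest count was 65.6% of 20450 genes tested (no filter), and the largest share was 86.9% (limma-voom).

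With library size alone, signs turned for Mcl1 (0.046), Bbc3 (0.13), Bak1 (0.32), Bmf (0.27) and Cycs (0.33), a setting that shifts all genes by a median of 0.34. When 1 library was left out, Bak1 ran from -0.055 to 0.006 (above 0 without young replicate 1 or aged replicate 2), Bmf from -0.194 to 0.035 (above 0 without young replicate 1) and Cycs from -0.055 to 0.016 (above 0 without young replicate 2 or aged replicate 2), none of them called.

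The gain of pro-survival over pro-death members, 0.67, was 0.23 without Bcl2l1, 1.04 without Mcl1, 0.44 without Bcl2l11, 1.27 without Pmaip1, 0.43 without Bid and 0.51 without Bad, an alternative added after seeing the data.

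Same-numbered libraries did not deviate together (correlations across genes of -0.013, 0.001 and 0.010), and not every library correlated best with its own number. No pairing by number was seen, and 3 libraries per group are too few to exclude one. With the replicate block the count of called members was again 7, that of other pathway genes 48 and that of all genes 85.2% of those tested.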
